A study of Mus musculus with 16 samples.

Results

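The Serpina3 cluster is a run of related serine protease inhibitor genes on mouse chromosome 12, and 6 of its genes are described here across young and aged lung endothelium: Serpina3n, Serpina3k, Serpina3g, Serpina3f, Serpina3i and Serpina3m. They were taken by gene name, as 6 of 43346 genes in the table and 6 of 14 Serpina3 genes of this chromosome, and were chosen by their measured levels in all 4 groups. Those levels are therefore given as a description, and where members past a call rule are counted, nothing is read from the count. RNA was sequenced from endothelial cells (ECs) that were sorted from the lungs of Col1a1-GFP transgenic FVB mice of mixed sex, so every group carries the reporter. Mice were 2 months (young) or 18 months (aged) old, and each received either bleomycin, a drug that injures the lung, or PBS (Sham) through the trachea, 30 days before harvest. Lung ECs were gated as CD45-, EpCAM-, GFP- and CD31+, a gate that also takes out cells making much type I collagen. There were 5 Young Sham libraries, 4 of Young Bleo, 3 of Aged Sham and 4 of Aged Bleo, with 1 library per mouse according to the methods of the study.

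Serpins inhibit a protease by offering it a loop as bait: the protease cuts the loop, the serpin folds around it and the pair stays locked together. Mice carry many copies of the gene that encodes alpha-1-antichymotrypsin in humans, and the copies differ in this reactive loop near the end of the protein and elsewhere. Serpina3n is regarded as the closest counterpart of the human gene, is secreted, and inhibits cathepsin G and granzyme B. Its transcript is a classical acute-phase product of the liver and is also induced by inflammatory cytokines and glucocorticoids in other tissues. Serpina3g (also called Spi2A) lacks a signal peptide, acts inside the cell against lysosomal cathepsins and is a target of NF-kB in activated T cells. Serpina3k binds tissue kallikrein. Serpina3f, Serpina3i and Serpina3m are less well characterised.

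The 6 genes lie on the + strand of chromosome 12 in mm10. From the lower coordinate upward the order is Serpina3f (ENSMUSG00000066363, chr12:104214544-104221129), Serpina3g (ENSMUSG00000041481, chr12:104236245-104241939), Serpina3i (ENSMUSG00000079014, chr12:104263122-104269372), Serpina3k (ENSMUSG00000058207, chr12:104338486-104346144), Serpina3m (ENSMUSG00000079012, chr12:104338486-104394257) and Serpina3n (ENSMUSG00000021091, chr12:104406729-104414329). The Serpina3m model starts at the same base as Serpina3k and shares 60 exon bases with it. How reads over those bases were counted is not given in the sources used here. Serpina3h, a transcribed pseudogene that is not among the 6, lies between Serpina3g and Serpina3i. Each of the 6 genes has 4 coding exons. Serpina3n, Serpina3k and Serpina3m encode 418 codons each, Serpina3i 408, Serpina3f 445 and Serpina3g 248.

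RefSeq promoter windows of 300 bases around the start site, ending 50 bases after it, were held for 4 of the 6 genes, and none was held for Serpina3k or Serpina3m. They are shown because they show how alike the upstream sequences are of genes that differed in their pattern over the groups. The capitals mark a run of 13 bases that all 4 windows share (build GRCm38.p6, the patch release of mm10).
Serpina3n, chr12:104406458-104406757, + strand: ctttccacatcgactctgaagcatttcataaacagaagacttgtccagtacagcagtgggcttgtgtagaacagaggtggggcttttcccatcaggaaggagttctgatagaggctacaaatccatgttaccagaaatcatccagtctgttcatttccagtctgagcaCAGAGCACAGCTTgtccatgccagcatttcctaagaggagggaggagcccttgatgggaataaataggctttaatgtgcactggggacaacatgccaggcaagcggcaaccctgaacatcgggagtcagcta
Serpina3i, chr12:104262872-104263171, + strand: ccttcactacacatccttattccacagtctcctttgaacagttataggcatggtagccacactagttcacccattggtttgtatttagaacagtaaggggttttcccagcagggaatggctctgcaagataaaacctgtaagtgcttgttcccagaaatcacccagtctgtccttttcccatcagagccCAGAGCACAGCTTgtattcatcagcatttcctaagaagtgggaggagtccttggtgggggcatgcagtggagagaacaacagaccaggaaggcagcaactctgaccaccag
Serpina3f, chr12:104214294-104214593, + strand: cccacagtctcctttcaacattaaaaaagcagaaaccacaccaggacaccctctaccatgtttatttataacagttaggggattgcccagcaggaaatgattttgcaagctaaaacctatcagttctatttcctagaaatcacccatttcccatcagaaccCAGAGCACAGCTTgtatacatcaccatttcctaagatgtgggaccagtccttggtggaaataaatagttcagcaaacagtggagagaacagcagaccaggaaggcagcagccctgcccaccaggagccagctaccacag
Serpina3g, chr12:104235897-104236196, + strand: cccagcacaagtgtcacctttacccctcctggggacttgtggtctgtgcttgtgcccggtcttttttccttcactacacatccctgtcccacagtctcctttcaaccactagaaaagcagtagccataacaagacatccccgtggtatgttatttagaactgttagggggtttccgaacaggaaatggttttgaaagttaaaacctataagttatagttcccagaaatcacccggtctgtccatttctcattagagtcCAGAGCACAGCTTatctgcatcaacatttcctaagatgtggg

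The shared run began 82 bases before the RefSeq start site of Serpina3n, 61 before that of Serpina3i, 89 before that of Serpina3f and 8 bases after that of Serpina3g. It was found in 7 of 32851 RefSeq promoters of the same length (0.0213%), those of Serpina3c and Olfr374 included. Over the aligned bases, the Serpina3f window was 83.7% identical to that of Serpina3g and 83.3% to that of Serpina3i. The Serpina3n window was the most distant, at 76.5% identity to Serpina3i, 73.2% to Serpina3g and 71.2% to Serpina3f.

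The motifs were searched on both strands of the same windows. The STAT motif TTCNNNGAA, held by 8.30% of all promoters, was present in the Serpina3f, Serpina3g and Serpina3i windows and not in that of Serpina3n. Its form with a longer spacer, TTC and GAA with 4 bases between them (6.95% of promoters), was present in Serpina3i alone, where it overlapped a C/EBP match by 7 bases. The NF-kB consensus (4.51% of promoters) was present in Serpina3g, where it overlapped a C/EBP match by 5 bases, and in Serpina3i. The ETS motif CAGGAAG (13.3%) was present in Serpina3f, Serpina3i and Serpina3n, the C/EBP motif TTNNGNAA (40.7%) in all 4 windows, and the interferon-response motif, TTTC and TTTC with 2 bases between them (3.44%), in none of the 4. These matches describe letters in the sequence and not binding.

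The coding sequences were close enough that read assignment matters. Serpina3k and Serpina3m were 92.6% identical over aligned coding bases and Serpina3f and Serpina3i 92.1%, while Serpina3n was between 83.8% (Serpina3k) and 86.1% (Serpina3g) identical to the others. As a measure of ambiguous reads, every window of 100 bases (the read length) in a transcript was looked up in the transcripts of other genes. For Serpina3n, 0.204% of windows were found in another gene. The share was 2.33% for Serpina3i, 3.58% for Serpina3f, 4.64% for Serpina3g, 4.85% for Serpina3k and 6.09% for Serpina3m, the last pair sharing with each other. How the authors counted reads with several matches is not given in the sources used here, so the split between Serpina3k and Serpina3m, and among Serpina3f, Serpina3g, Serpina3i and Serpina3h, is uncertain.

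Each library held 20907113 to 71035301 counts. Endothelial markers Pecam1, Cdh5, Kdr, Tie1, Cldn5, Egfl7 and Emcn summed to 1350 to 2568 FPKM (fragments per kilobase of transcript, scaled to library size). The lowest sums were in Aged Bleo and Young Bleo. Cldn5 was the largest part, with means of 1534 FPKM in Young Sham and 830 in Young Bleo. Young Bleo means of Cdh5, Kdr and Pecam1 were also lower. Those of Emcn (79.1 against 53.5), Egfl7 (461 against 394) and Tie1 (66 against 57.9) were higher. Among aged mice, bleomycin means of Cldn5, Kdr and Emcn were lower, and those of Pecam1, Cdh5, Tie1 and Egfl7 were higher. Macrophage markers (5 genes, Cd68, Marco, Chil3, Lyz2 and Csf1r) summed to 22.6 to 43.1 FPKM in Young Sham, 151 to 431 in Young Bleo, 52.1 to 180 in Aged Sham and 205 to 1508 in Aged Bleo. Epithelial markers (6 genes) summed to 62.5 to 656 FPKM with overlapping ranges in all groups. No library was taken out. Since RNA was measured in bulk, fewer cells of a type and less RNA per cell cannot be told apart. Levels between libraries of 1 gene are given below as counts normalized by DESeq2 size factors, and levels between genes as FPKM.

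Serpina3n, the secreted inhibitor of cathepsin G and granzyme B, was the member with the clearest separation of the groups. In Young Sham its normalized counts were 4084, 2502, 4168, 3259 and 3232 (mean 3449 ± 689, SD, n = 5). In Young Bleo they were 11598, 8227, 10163 and 6032 (9005 ± 2416, n = 4). The lowest Young Bleo library was above the highest Young Sham library. In Aged Sham they were 23383, 32230 and 37214 (30942 ± 7005, n = 3), and in Aged Bleo 13917, 17215, 17593 and 21131 (17464 ± 2950, n = 4). The order of the groups was thus Young Sham, Young Bleo, Aged Bleo and Aged Sham, and no 2 neighbouring groups overlapped. Aged Sham was at 8.97 times the Young Sham mean, Young Bleo at 2.61 times and Aged Bleo at 5.06 times. Bleomycin libraries were above their own sham in young mice and below it in aged mice, where the Aged Bleo mean was 0.564 of the Aged Sham mean.

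Serpina3m, whose gene lies next to Serpina3n, followed the same order with a wider range. Its normalized counts were 263, 148, 168, 133 and 150 in Young Sham (173 ± 52.3, n = 5) and 370, 246, 396 and 226 in Young Bleo (309 ± 85.8, n = 4). They were 2931, 4816 and 5725 in Aged Sham (4491 ± 1425, n = 3) and 515, 851, 1578 and 2318 in Aged Bleo (1315 ± 802, n = 4). Both aged groups lay above both young groups, Aged Bleo lay below Aged Sham, and the young groups overlapped. The Aged Sham mean was 26 times the Young Sham mean, the widest ratio among the 6 genes, and the Aged Bleo mean was 0.293 of the Aged Sham mean.

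Serpina3k, the kallikrein-binding member, was at a low level and varied widely within groups. Its normalized counts were 27.4, 10.7, 32.8, 25.7 and 91.9 in Young Sham (37.7 ± 31.4, n = 5) and 57.2, 28.1, 114 and 16.2 in Young Bleo (53.7 ± 43.4, n = 4). They were 512, 699 and 1013 in Aged Sham (741 ± 253, n = 3) and 39.2, 184, 256 and 570 in Aged Bleo (262 ± 224, n = 4). Aged Sham lay above both young groups, at 19.7 times the Young Sham mean, and Aged Bleo overlapped every other group. The young bleomycin difference turned on single libraries: its log2 fold change of 0.51 was -0.16 without Young Bleo replicate 19 and 1.17 without Young Sham replicate 25.

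Serpina3i had normalized counts of 653, 368, 1163, 697 and 738 in Young Sham (724 ± 285, n = 5) and 1639, 1992, 1868 and 995 in Young Bleo (1623 ± 444, n = 4). In Aged Sham they were 2746, 4382 and 1925 (3017 ± 1251, n = 3) and in Aged Bleo 2215, 3034, 1273 and 2779 (2325 ± 781, n = 4). Both aged groups lay above Young Sham, at 4.17 and 3.21 times its mean. All other pairs of neighbouring groups overlapped, Young Bleo with Young Sham by 1 library.

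Serpina3g, the intracellular cathepsin inhibitor, did not separate the groups compared here. Its normalized counts were 2017, 1471, 3683, 2844 and 2768 in Young Sham (2556 ± 846, n = 5) and 1010, 1882, 1650 and 2524 in Young Bleo (1766 ± 625, n = 4). They were 6161, 4232 and 2898 in Aged Sham (4430 ± 1640, n = 3) and 1902, 2539, 2588 and 9851 in Aged Bleo (4220 ± 3767, n = 4). The last Aged Bleo value, of replicate 5, lay far above the other 3, which were within the Young Sham range. Each pair of groups that was compared overlapped, while Aged Sham lay above Young Bleo.

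Serpina3f showed the same shape as Serpina3g at a higher count. It had 4093, 2827, 8794, 5597 and 4547 in Young Sham (5172 ± 2256, n = 5) and 1417, 2573, 1650 and 4097 in Young Bleo (2434 ± 1216, n = 4). It had 9995, 7688 and 4399 in Aged Sham (7361 ± 2812, n = 3) and 2651, 3502, 3851 and 12401 in Aged Bleo (5601 ± 4561, n = 4). Aged Bleo replicate 5 was again the highest library, and the ranges overlapped in the same pairs of groups as for Serpina3g.

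**Figure D1:**
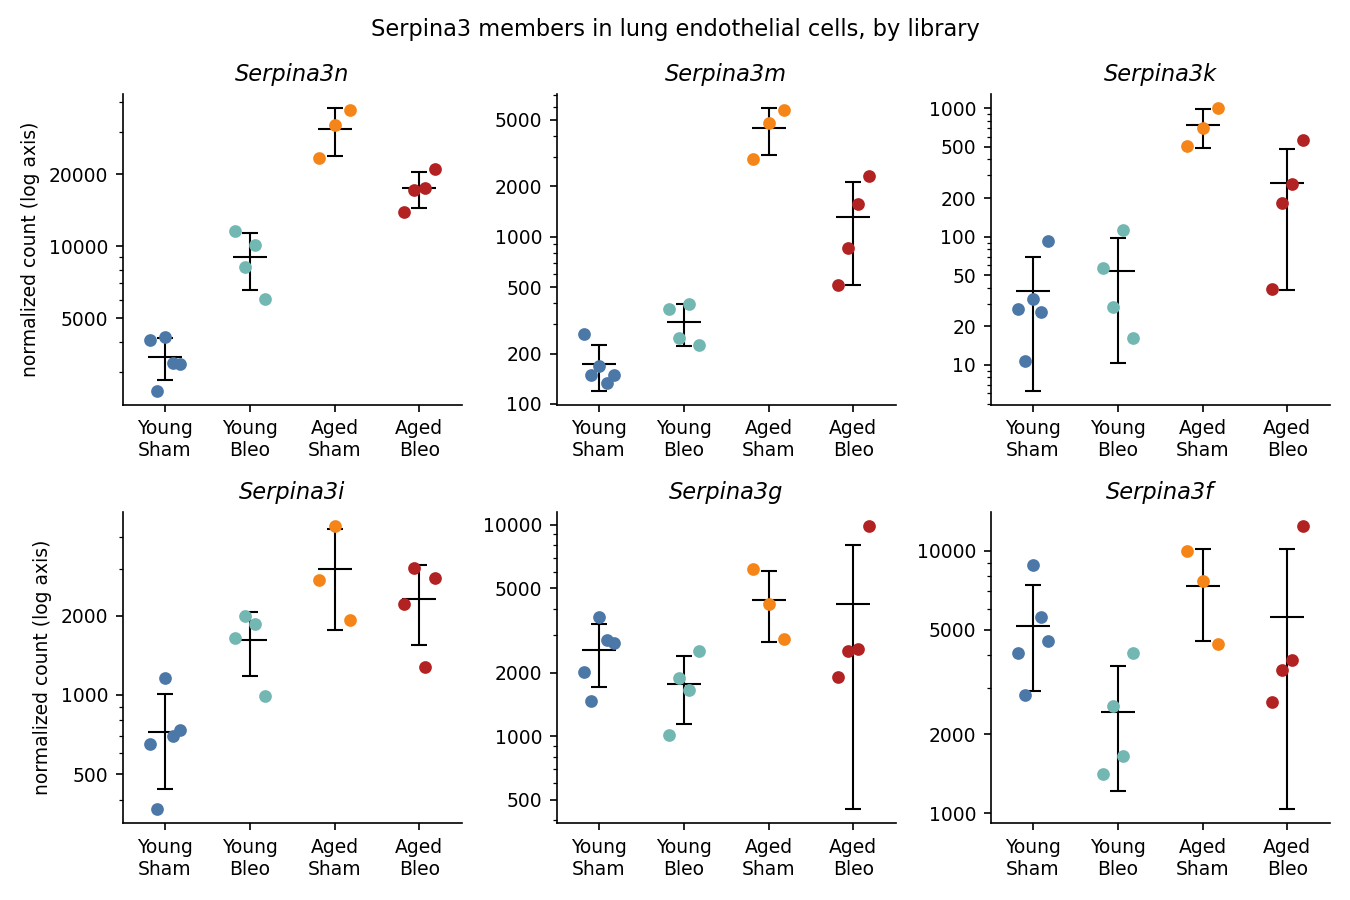
Normalized counts (log axis) of the 6 genes, one panel each, with one point per library in Young Sham, Young Bleo, Aged Sham and Aged Bleo and black bars for the mean ± SD. The 4 groups of Serpina3n do not overlap, Aged Sham holds the highest Serpina3m values (2931 to 5725), and in Serpina3g and Serpina3f 1 Aged Bleo library (9851 and 12401) stands above the rest.

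Per length, the order of the genes differed between the groups. In Young Sham, Serpina3f led with 22.3 ± 10.1 FPKM, followed by Serpina3n (16.5 ± 3.45) and Serpina3g (12 ± 4.03), with overlapping spreads. Serpina3i (3.22 ± 1.32), Serpina3m (0.994 ± 0.307) and Serpina3k (0.18 ± 0.148) were lower. In Young Bleo, Serpina3n led with 43.7 ± 10.6 FPKM, while Serpina3f (10.9 ± 5.91), Serpina3g (8.52 ± 3.33) and Serpina3i (7.30 ± 1.81) did not differ beyond their spread. In Aged Sham, Serpina3n was at 136 ± 38.3 FPKM, and Serpina3f (28.5 ± 9.43), Serpina3m (23.8 ± 8.77) and Serpina3g (18.7 ± 5.86) came next with overlapping spreads. The mean of Serpina3m, below those of Serpina3g and Serpina3i in both young groups, thus stood above both there. In Aged Bleo the levels were 83.3 ± 15.6 FPKM for Serpina3n, 24.3 ± 20.4 for Serpina3f, 19.9 ± 18.3 for Serpina3g, 10.2 ± 3.20 for Serpina3i, 7.61 ± 4.82 for Serpina3m and 1.27 ± 1.11 for Serpina3k. The ranks were the same with normalized counts per kilobase.

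Differences between groups were put on the log2 scale with a DESeq2 fit of all 16 libraries, in which a gene was called at an adjusted p of at most 0.05 and a log2 fold change of at least 0.5 in either direction. For aging without injury (Aged Sham against Young Sham), the log2 fold changes were 4.70 ± 0.40 (SE) for Serpina3m, 4.30 ± 0.72 for Serpina3k, 3.17 ± 0.23 for Serpina3n, 2.06 ± 0.36 for Serpina3i, 0.79 ± 0.46 for Serpina3g and 0.51 ± 0.48 for Serpina3f. The members past the call rule were 4 of 6 (Serpina3i, Serpina3k, Serpina3m and Serpina3n), all higher and none lower, where 2.24% of 18515 genes tested were called higher and 1.12% lower. The median log2 fold change was 2.61 over the members and 0.02 over all genes tested. Because this contrast was among the values by which the genes were chosen, these shares are a description.

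For injury in young mice (Young Bleo against Young Sham), the log2 fold changes were 1.38 ± 0.22 for Serpina3n, 1.17 ± 0.33 for Serpina3i, 0.84 ± 0.37 for Serpina3m, 0.51 ± 0.67 for Serpina3k, -0.53 ± 0.43 for Serpina3g and -1.09 ± 0.44 for Serpina3f. Serpina3n and Serpina3i were past the rule (2 of 6, higher), where 7.57% of all genes tested were called higher and 6.35% lower. Serpina3f and Serpina3g were thus on the other side of 0 from the remaining 4 genes, with neither past the rule. Serpina3f was past it, in the lower direction, with only the compared groups in the fit, without Young Bleo replicate 20 or without Young Sham replicate 22. For injury in aged mice (Aged Bleo against Aged Sham), all 6 values were below 0: -1.77 ± 0.41 for Serpina3m, -1.50 ± 0.75 for Serpina3k, -0.83 ± 0.24 for Serpina3n, -0.39 ± 0.50 for Serpina3f, -0.38 ± 0.38 for Serpina3i and -0.07 ± 0.49 for Serpina3g. Serpina3m and Serpina3n were past the rule (2 of 6, lower), where 3.40% of all genes were called higher and 2.45% lower. The Serpina3n call was lost without Aged Bleo replicate 1, Aged Sham replicate 14 or Aged Sham replicate 15, and edgeR called 0 of the 6 members here. The sign of the Serpina3g value changed to 0.24 without Aged Sham replicate 13.

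The difference between these responses (aged minus young) was -2.61 ± 0.55 for Serpina3m, -2.21 ± 0.33 for Serpina3n, -2.01 ± 1.01 for Serpina3k, -1.54 ± 0.50 for Serpina3i, 0.46 ± 0.65 for Serpina3g and 0.69 ± 0.67 for Serpina3f. Serpina3m and Serpina3n were past the rule (2 of 6, lower), where 0.137% of 20380 genes tested were called higher and 0.240% lower. With edgeR and with limma on log2(FPKM + 1) only Serpina3n was past it, and with limma on log2(FPKM + 0.1) neither was. Without Aged Bleo replicate 5 the Serpina3g value was -0.39 and the Serpina3f value -0.06, so the sign of this difference rested on that library for both genes.

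Aged Bleo was also set against Young Sham, as in the study, and against Young Bleo. Against Young Sham, the values were 2.93 ± 0.37 for Serpina3m, 2.80 ± 0.67 for Serpina3k, 2.34 ± 0.22 for Serpina3n, 1.69 ± 0.33 for Serpina3i, 0.72 ± 0.43 for Serpina3g and 0.12 ± 0.44 for Serpina3f. The same 4 genes as in Aged Sham were past the rule (4 of 6, higher), where 6.58% of all genes were called higher and 3.14% lower. With limma on log2(FPKM + 1) Serpina3k was not past it. The comparisons against Young Sham share their 5 control libraries and are therefore not independent of each other. Against Young Bleo, the values were 2.29 ± 0.70 for Serpina3k, 2.09 ± 0.38 for Serpina3m, 1.26 ± 0.45 for Serpina3g, 1.20 ± 0.47 for Serpina3f, 0.96 ± 0.23 for Serpina3n and 0.52 ± 0.35 for Serpina3i. Serpina3m and Serpina3n were past the rule (2 of 6, higher), where 0.585% of 18986 genes tested were called higher and 0.406% lower, the Serpina3n call was lost without Aged Bleo replicate 5, and edgeR called 0 of the 6. Without that library Serpina3g was at -0.12 against Young Sham and 0.41 against Young Bleo, and Serpina3f at -0.63 and 0.45.

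**Figure D2:**
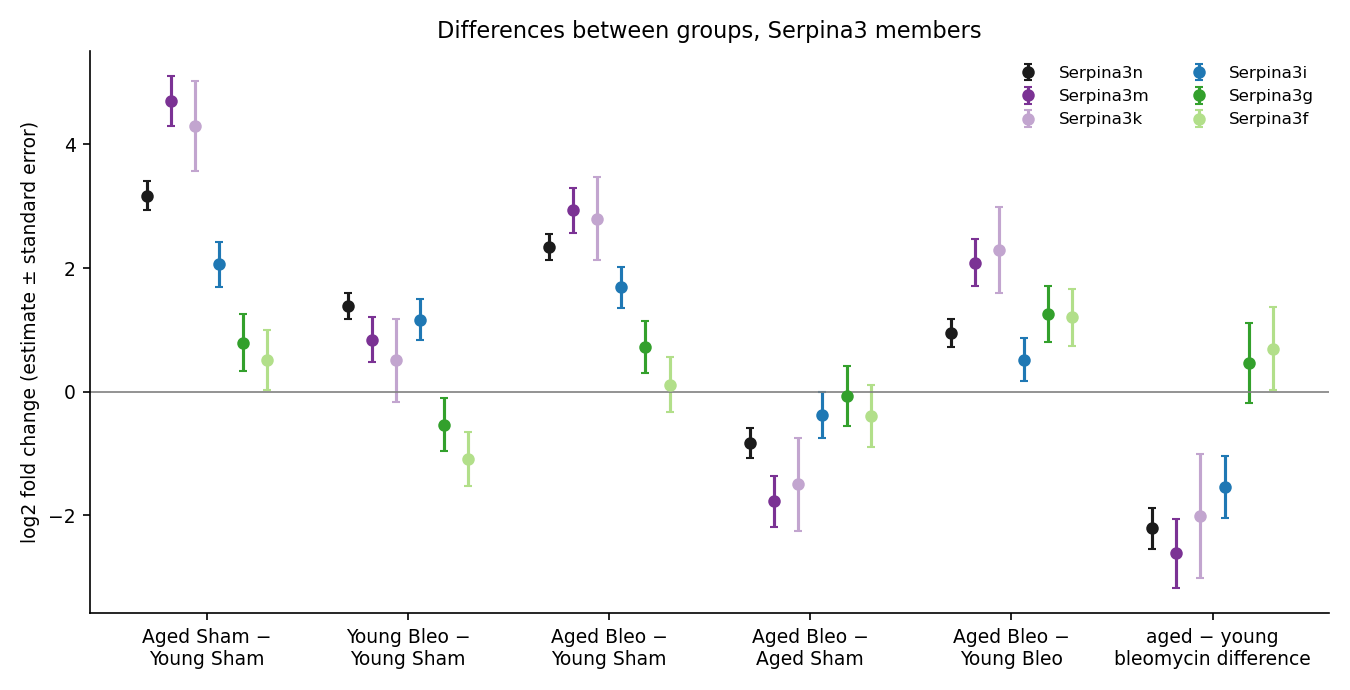
Log2 fold change ± standard error (y axis) of the 6 genes, one colour each, in the 6 comparisons (x axis), the last being the aged minus the young response. Serpina3m, Serpina3k, Serpina3n and Serpina3i lie above 0 in Aged Sham against Young Sham (2.06 to 4.70) and below 0 in the difference of responses (-2.61 to -1.54), while Serpina3g and Serpina3f lie near 0 in both with errors of 0.46 to 0.67.

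Of the 6 genes, 5 fell into 2 sets that varied together, and Serpina3i was in neither. Over 16 libraries, on log2(normalized count + 1), Serpina3f and Serpina3g had a Pearson correlation of 0.94, which was 0.96 after the group means were taken out. Serpina3n, Serpina3m and Serpina3k had correlations of 0.94 (Serpina3n with Serpina3m), 0.93 (Serpina3k with Serpina3m) and 0.86 (Serpina3n with Serpina3k), and 0.74, 0.73 and 0.70 within groups. Serpina3n with Serpina3f had 0.18, and -0.01 within groups. Serpina3i was near Serpina3n over all libraries (0.88) and less so within groups (0.45, with 0.31 for Serpina3k and 0.01 for Serpina3m), where its closest partner was the pseudogene Serpina3h (0.98). These are descriptions over libraries that share a normalization, and genes of a pair can share reads. Of the 100-base windows, 95 of Serpina3k were found in Serpina3m, 20 of Serpina3f in Serpina3g and 15 of Serpina3i in Serpina3h.

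**Figure D3:**
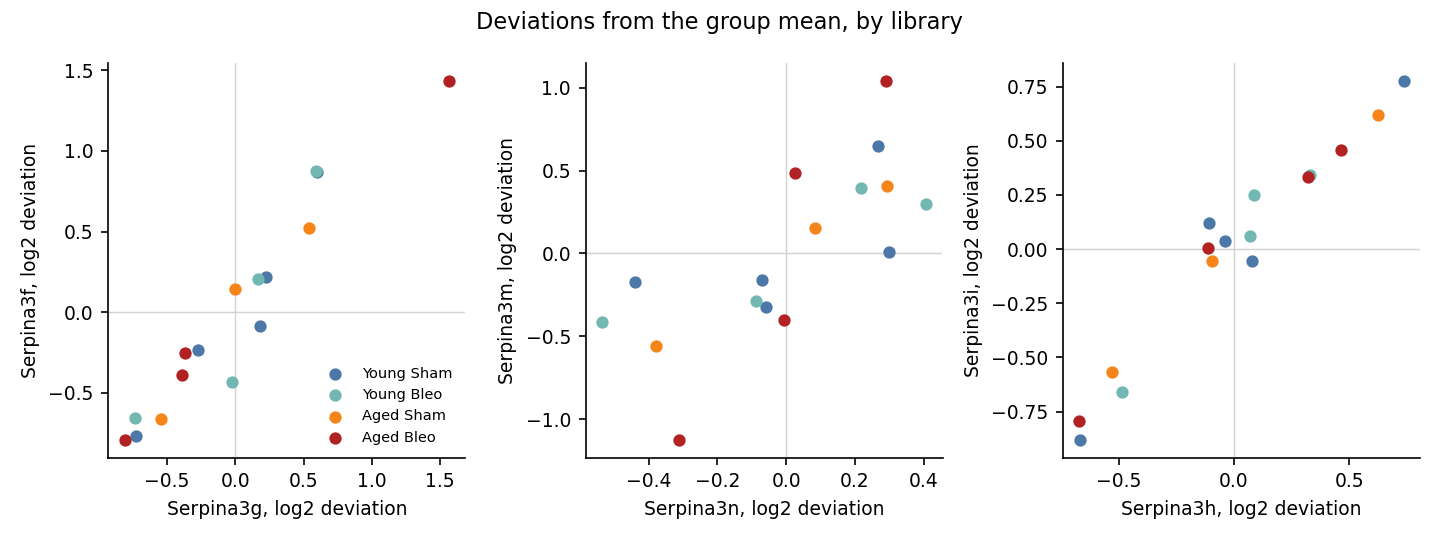
Deviation of each library from its group mean on the log2 scale, with one point per library, for Serpina3f against Serpina3g, Serpina3m against Serpina3n and Serpina3i against Serpina3h. The points lie along a line in the left and right panels (correlations of 0.96 and 0.98) and scatter more in the middle one (0.74).

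The other genes of the cluster on chromosome 12 were tested in the same fit. These were 23 further Serpina and flanking genes, of which 22 were in the table and 12 were tested against Young Sham. In Aged Sham 7 of the 12 rose and none fell (edgeR called 5 and 0), where 2.24% of all genes tested rose. The genes that rose were Serpina1a, Serpina1b, Serpina1d, Serpina1e, Serpina3e-ps, Serpina3h and Serpina3j. Some of them are close copies whose split of reads is uncertain, so these calls are not independent of each other. In Aged Bleo 6 rose against Young Sham (edgeR 5, all genes 6.58%), in Young Bleo 1 rose (edgeR 1, all genes 7.57%), and in Aged Bleo against Aged Sham 0 were called (0 at an unadjusted p under 0.05, and 0 by edgeR), where 3.40% of all genes rose and 2.45% fell. Against Young Bleo, 4 of 13 rose in Aged Bleo (edgeR 2, all genes 0.585%). The median log2 fold change of the tested genes was 2.44 in Aged Sham, 0.36 in Young Bleo and 1.76 in Aged Bleo, each against Young Sham, and -0.14 in Aged Bleo against Aged Sham.

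Serpina3h, the pseudogene between Serpina3g and Serpina3i, had mean normalized counts of 1846 ± 666 and 3534 ± 779 in the young groups (Sham and Bleo) and 7906 ± 3276 and 5006 ± 1618 in the aged groups. It rose by 2.10 (log2) in Aged Sham (adjusted p = 1.2e-07 by DESeq2, 0.0036 by edgeR) and by 1.44 in Aged Bleo against Young Sham (adjusted p = 1.0e-04 and 0.0092). Its rise of 0.94 in Young Bleo (adjusted p = 0.017 and 0.047) was lost without Young Bleo replicate 17 (0.053), 18 (0.086) or 19 (0.051) or Young Sham replicate 22 (0.055). The pseudogene Serpina3e-ps was at 20.4 ± 7.05 in Young Sham and 78.1 ± 23.3 in Aged Sham (log2 fold change 1.95, adjusted p = 0.0047 by DESeq2 and 0.086 by edgeR), a call that was lost without Aged Sham replicate 14 (1.72, adjusted p = 0.087). Serpina3c was at 1.81 (adjusted p = 0.483) and Serpina3l-ps at 1.07 (adjusted p = 0.505) in Aged Sham against Young Sham, and neither was called. Serpina3j, at a mean of 1.75 normalized counts in Young Sham and 15.6 in Aged Sham, was called higher by DESeq2 (adjusted p = 0.047), and the call was lost in 6 of 8 fits that left out a library, with no adjusted p given in the other 2.

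The Serpina1 genes at the other end of the cluster encode alpha-1-antitrypsin, the main plasma inhibitor of neutrophil elastase. Serpina1a, Serpina1b, Serpina1d and Serpina1e rose in both aged groups against Young Sham, while Serpina1f was at 0 in all 16 libraries. Serpina1b was at 353 ± 90.2 and 530 ± 144 in the young groups (Sham and Bleo) and 2603 ± 1066 and 2594 ± 742 in the aged groups. It rose by 2.88 in Aged Sham (adjusted p = 3.7e-18 by DESeq2, 0.00011 by edgeR) and by 2.88 in Aged Bleo, both against Young Sham (1.2e-21 and 8.3e-05 for the latter). It rose by 2.29 in Aged Bleo against Young Bleo (1.9e-11 and 0.0083) and had a log2 fold change of 0.58 in Young Bleo (0.145). Aged Bleo and Aged Sham were close to each other in Serpina1b (log2 fold change -0.00, adjusted p = 0.998), where Serpina3n was at -0.83. Serpina1d, Serpina1e and Serpina1a rose by 3.20, 2.78 and 2.77 in Aged Sham (adjusted p = 8.5e-11, 1.4e-09 and 2.5e-08 by DESeq2, and 0.0020, 0.0024 and 0.0033 by edgeR). In Aged Bleo against Young Sham, they rose by 3.40, 2.90 and 2.34. Against Young Bleo, edgeR gave them adjusted p values of 0.034, 0.057 and 0.131, so only Serpina1d of the 3 was also called there by edgeR. The Serpina1 copies are near identical and the Serpina1b model spans that of Serpina1d, so the split among them is uncertain. The low Serpina1c (0 to 2.83 normalized counts in Young Sham, 8.40 to 23.5 in Aged Bleo) was called in Aged Bleo against Young Sham (adjusted p = 0.011 by DESeq2, 0.064 by edgeR), a call that was lost without Aged Bleo replicate 1 (0.090), and was not called in Aged Sham (adjusted p = 0.168).

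**Figure D4:**
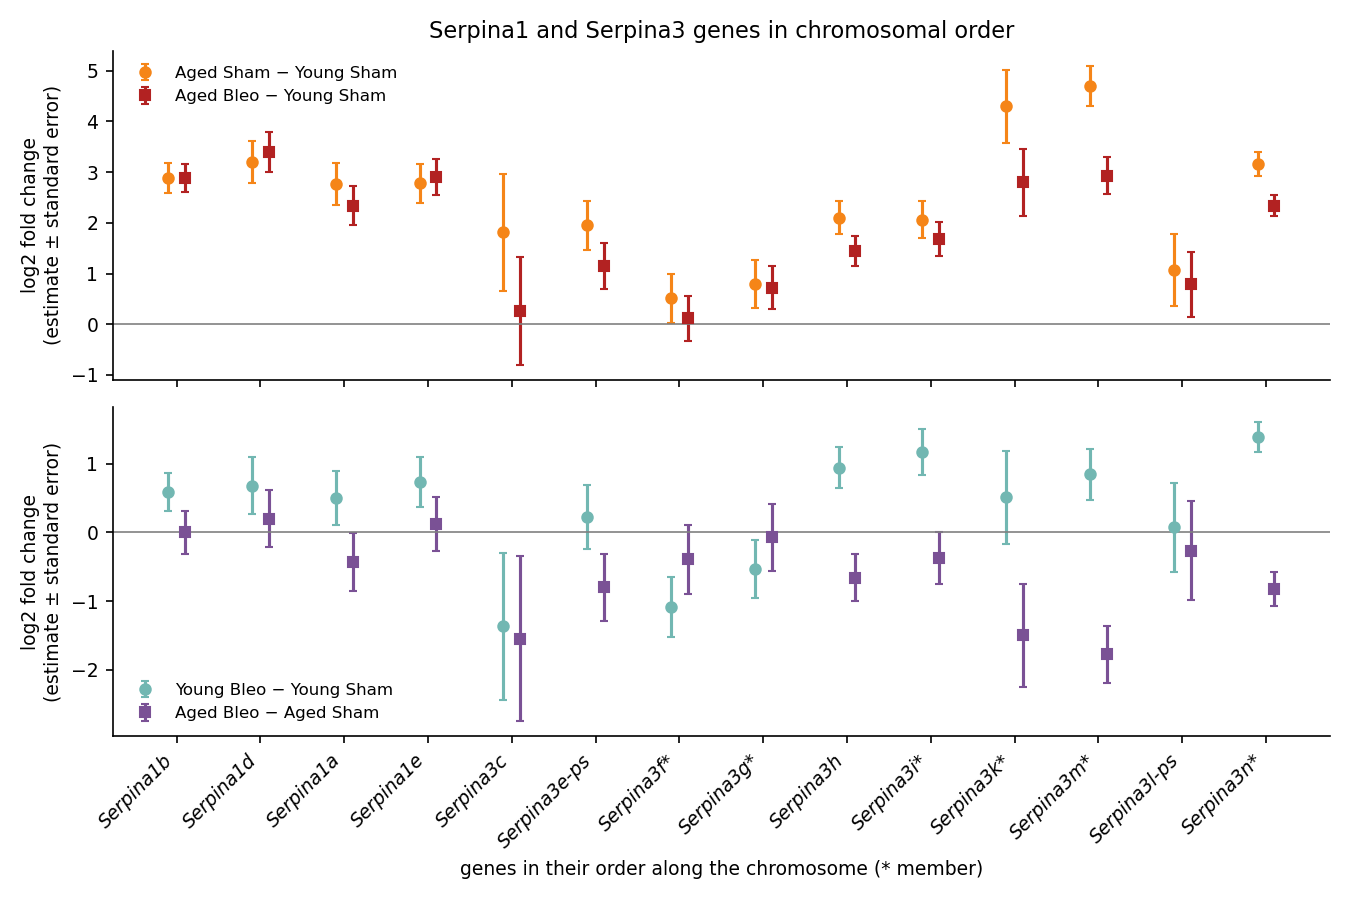
Log2 fold change ± standard error (y axis) of Serpina1 and Serpina3 genes in their order along the chromosome (x axis, not to scale, members with an asterisk), with both comparisons of aged groups against Young Sham above and both bleomycin comparisons against their own sham below. In Aged Sham against Young Sham, Serpina3m, Serpina3k and Serpina3n lie at 4.70, 4.30 and 3.17 and Serpina1b at 2.88, while Serpina3l-ps, Serpina3g and Serpina3f lie at 1.07, 0.79 and 0.51. In Aged Bleo against Aged Sham, Serpina1b lies at -0.00 and Serpina3m at -1.77.

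Genes of this cluster are made in large amounts by the liver, so hepatocyte markers were looked at. Alb, Apoa1, Ttr, Ahsg and Apoh summed to at most 0.493 FPKM in any library, Ttr was at 0 in all 16, and Alb was at 0 except for up to 0.112 FPKM in Aged Bleo. Macrophage markers were highest in Aged Bleo, where replicates 1, 2, 3 and 5 had sums of 1508, 838, 358 and 205 FPKM. Serpina3n ran the other way in these 4 libraries, lowest in replicate 1 (13917) and highest in replicate 5 (21131). In Young Bleo, in contrast, replicate 20 had both the lowest macrophage sum (151 FPKM) and the lowest Serpina3n count (6032). The macrophage sums of Young Bleo and Aged Sham all lay above those of Young Sham, as did Serpina3n. Lyz2 made up most of these sums. In Aged Sham the means of Lyz2, Cd68 and Chil3 were above those of Young Sham. Those of Csf1r (0.517 against 0.566 FPKM) and Marco (0.0374 against 0.0453) were not. The part of macrophage RNA in these differences was not tested. Mesothelial markers (5 genes) summed to 0.0954 to 1.53 FPKM in Young Sham, 5.64 to 17.2 in Young Bleo, 3.72 to 14.0 in Aged Sham and 0.510 to 6.46 in Aged Bleo. They moved with the young bleomycin and aging differences, and their part in those was not tested. Fibroblast markers (6 genes) summed to 13.1 to 31.8 FPKM in Young Sham and 17.8 to 30.9 in Young Bleo. In Aged Sham they summed to 14.5 to 25.8 and in Aged Bleo to 6.83 to 11.7. Pericyte markers (5 genes) summed to 39.6 to 85.3 FPKM in Young Sham and 15.7 to 44.9 in Young Bleo. Their sums were 26.3 to 41.2 in Aged Sham and 11.3 to 17.2 in Aged Bleo. Both lists were lower in Aged Bleo than in Aged Sham without overlap, as were Serpina3n and Serpina3m. Their part in that fall was not tested.

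Lymphocyte markers (Cd3e, Cd79a, Ms4a1 and Nkg7) were looked at because Serpina3g is known from activated T cells. They summed to 19.1 FPKM in Aged Bleo replicate 5 and to 0.694, 0.705 and 1.77 in the other 3 Aged Bleo libraries. In Aged Sham replicate 13, the library with the highest Serpina3g and Serpina3f of that group, they summed to 6.74 FPKM against 1.70 and 1.71 in the others. The range was 0.416 to 2.70 FPKM in Young Sham and 0.696 to 1.25 in Young Bleo. Within the young groups the orders differed in part. Young Sham replicate 24 had the sum of 2.70 while Serpina3g was highest in replicate 23 (3683, sum 1.45), and Young Bleo replicate 20 was highest in both (2524, sum 1.25) while replicate 17, second in the sum (0.930), was lowest in Serpina3g (1010). The pan-leukocyte markers (Ptprc, Cd52, Laptm5 and Coro1a) summed to 1.93 to 4.19 FPKM in Young Sham, 5.11 to 6.50 in Young Bleo, 6.41 to 16.1 in Aged Sham and 9.39 to 20.1 in Aged Bleo, and Ptprc, which encodes the CD45 used in the gate, was at most 0.517 FPKM. The part of lymphocyte RNA in the Serpina3g and Serpina3f values was not tested.

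**Figure D5:**
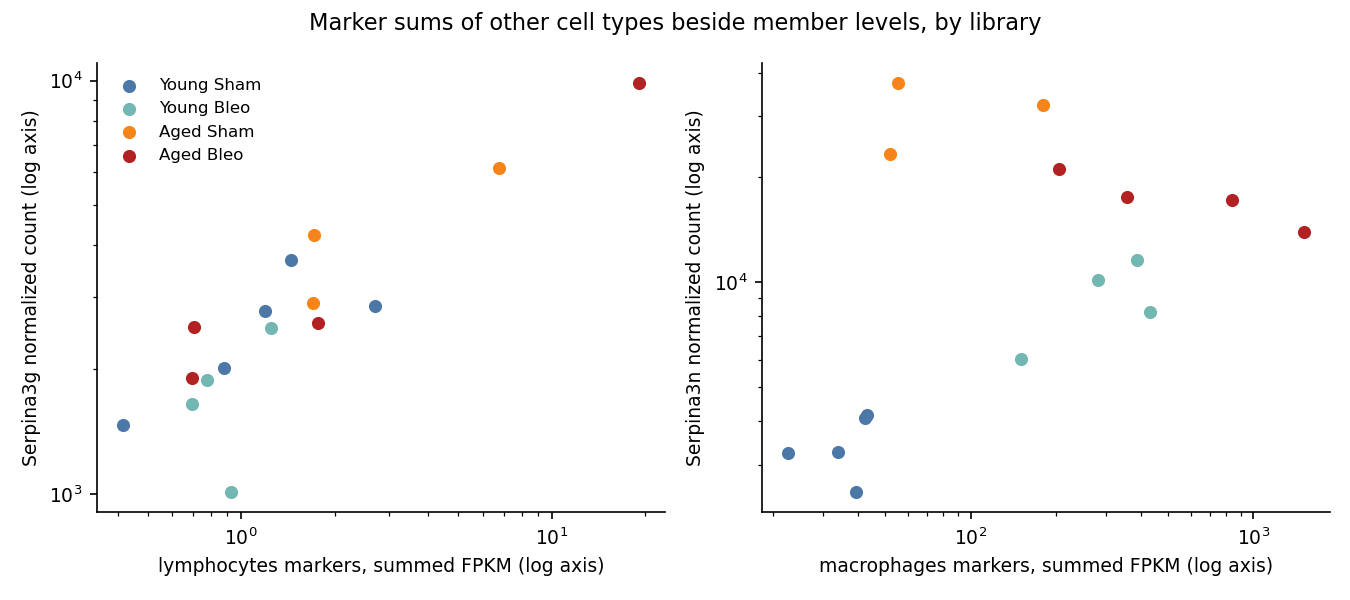
Left, Serpina3g normalized count against the summed FPKM of 4 lymphocyte markers, and right, Serpina3n normalized count against the summed FPKM of 5 macrophage markers, with one point per library and log axes. The library with the highest lymphocyte sum (19.1) has the highest Serpina3g count (9851), and Aged Sham holds the highest Serpina3n counts at macrophage sums of 52.1 to 180.

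Of 16 other serpins tested, 1 rose and 1 fell in Aged Sham against Young Sham (edgeR 0 and 1), with a median of 0.31, where 2.24% of all genes tested rose and 1.12% fell. Serping1, the C1 inhibitor of the complement and kallikrein pathways, rose by 1.14 (adjusted p = 0.0063 by DESeq2, 0.066 by edgeR), from 4053 ± 441 to 8909 ± 1743 normalized counts, a call that was lost without Aged Sham replicate 15 (1.02, 0.060). It fell by 1.35 in Aged Bleo against Aged Sham (adjusted p = 0.0009 and 0.046). Its response in aged mice was below that in young mice by -1.73 (adjusted p = 0.013 by DESeq2, 0.336 by edgeR), which was lost without Young Bleo replicate 19 (-1.70, 0.051). Serpine2 (protease nexin-1) likewise differed in its response by -1.45 (adjusted p = 0.032 and 0.336), with the call lost in 9 of 16 fits that left out a library, and rose by 0.89 in Young Bleo (adjusted p = 0.0036 and 0.021). Serpinh1, the collagen chaperone, fell by 1.03 in Aged Sham (adjusted p = 4.1e-05 and 0.019). Serpinf1 (pigment epithelium-derived factor) fell by 1.80 in Aged Bleo against Young Bleo (adjusted p = 8.7e-06 and 0.048). Serpinb6b rose by 0.98 in Young Bleo (adjusted p = 0.00034 and 0.0084) and by 0.97 in Aged Bleo against Young Sham (0.0006 and 0.013). Against Aged Sham it was at 0.81 in Aged Bleo (0.032 and 0.098), a call lost in 5 of 7 fits that left out a library. Serpinb1b fell by 2.00 in Young Bleo (adjusted p = 0.010 and 0.062), from 130 to 206 normalized counts in Young Sham to 3.12 to 91.5, a call lost without Young Bleo replicate 17 (0.056). Serpinb2 fell by 2.92 in Aged Bleo against Aged Sham (adjusted p = 0.0050 and 0.074), which rested on Aged Sham replicate 14 (-1.09, adjusted p = 0.40 without it).

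A list of proteases was counted in the same way. It holds serine proteases and cysteine cathepsins, and also metalloproteinases and an aspartic protease, which serpins do not inhibit. Of 24 tested, 7 rose and none fell in Young Bleo, and 10 rose and none fell in Aged Bleo, each against Young Sham (edgeR 7 and 10), where 7.57% and 6.58% of all genes tested rose. Against Aged Sham, 5 rose in Aged Bleo (edgeR 3, all genes 3.40%). Ctss, a lysosomal cathepsin of macrophages, rose by 4.33 in Young Bleo (adjusted p = 2.4e-09 by DESeq2, 0.0016 by edgeR) and by 4.10 in Aged Bleo against Aged Sham (8.8e-06 and 0.044). Mmp12, the macrophage metalloelastase, was at 0 to 6.15 normalized counts in Young Sham, 140 to 13165 in Young Bleo, 0 to 39.2 in Aged Sham and 1247 to 6068 in Aged Bleo. Both are genes of macrophages, whose markers moved the same way, and the part of macrophage RNA in these rises was not tested. Ctsk (cathepsin K) was at 3.37 in Aged Bleo against Aged Sham (adjusted p = 0.0086 and 0.085), a call lost in 3 of 7 fits that left out a library. The mast cell protease Mcpt1 and the plasma kallikrein gene Klkb1 were at 0 in all 5 Young Sham libraries and reached 17.6 and 26 normalized counts in Young Bleo. Htra1 was at -0.87 in Aged Bleo against Young Bleo (adjusted p = 0.038 and 0.246), lost in 7 of 8 such fits. In Aged Sham 3 proteases rose and 1 fell (edgeR 0 and 0), where 2.24% and 1.12% of all genes did. Klk1, the tissue kallikrein, rose from 12.4 ± 6.45 to 158 ± 124 normalized counts (log2 fold change 3.67, adjusted p = 0.0030 by DESeq2, 0.076 by edgeR), which was lost without Aged Sham replicate 13 (2.81, adjusted p = 0.10). Mmp9 was at 0 in all young libraries and at 0 to 32.3 in Aged Sham, and its call was lost without replicate 14 or 15. Ctsc, which activates granule serine proteases, fell by 0.77 (adjusted p = 0.0082 and 0.077), which was lost without Aged Sham replicate 13 (0.064) or 14 (0.099). Its response in aged mice was above that in young mice by 1.30 (adjusted p = 0.0060 by DESeq2, 0.291 by edgeR).

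Of the IL-6 family and STAT3 list, the signal that induces Serpina3n in the liver, 3 of 27 tested rose in Aged Sham and none fell (edgeR 3), where 2.24% of all genes tested rose. In Young Bleo 5 rose and 1 fell (edgeR 5 and 0, all genes 7.57% and 6.35%), and in Aged Bleo 7 rose against Young Sham (edgeR 6, all genes 6.58%) and 4 against Aged Sham (edgeR 0, all genes 3.40%). The median log2 fold change of the list was 0.25 for Aged Sham, 0.37 for Young Bleo and 0.36 for Aged Bleo, each against Young Sham. Cebpb and Junb, both factors of the acute-phase response, rose in Aged Sham by 1.34 (adjusted p = 1.7e-05 by DESeq2, 0.010 by edgeR) and 1.15 (1.6e-05 and 0.013). Socs3, the feedback inhibitor of STAT3 signalling, had mean normalized counts of 1408 ± 326 and 5453 ± 1099 in the young groups (Sham and Bleo) and 3376 ± 1449 and 7513 ± 2243 in the aged groups. It rose by 1.95 in Young Bleo (4.9e-10 and 0.0012) and by 1.26 in Aged Sham (0.0023 and 0.045), the latter lost without Aged Sham replicate 14 (1.01, 0.079). The Socs3 mean was highest in Aged Bleo and the Serpina3n mean in Aged Sham, and the part of STAT3 signalling in Serpina3n was not tested. In Aged Bleo against Aged Sham, Socs3 rose by 1.15 (adjusted p = 0.0080 and 0.071), lost without Aged Bleo replicate 1 (0.077) or Aged Sham replicate 13 (0.055). Osmr, the oncostatin M receptor, rose by 1.22 in Young Bleo (0.0015 and 0.017), as did Bcl3 by 1.18 (0.00021 and 0.0080). The ligand Osm, at 0 to 32.8 normalized counts in Young Sham, was at 8.40 to 333 in Aged Bleo, and its call there was lost without Aged Bleo replicate 1 (0.062) or 2 (0.086). Cebpd was at 1.24 in Aged Bleo against Young Sham (adjusted p = 0.0044 and 0.034), lost without Aged Bleo replicate 2 (0.069).

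Of 31 acute-phase and NF-kB genes tested, 6 rose and 1 fell in Aged Sham (edgeR 2 and 0), 14 rose and 2 fell in Young Bleo (edgeR 13 and 1) and 15 rose in Aged Bleo against Young Sham (edgeR 11), with list medians of 0.61, 1.24 and 1.21. The shares of all genes tested that rose were 2.24%, 7.57% and 6.58%, and 1.12% and 6.35% fell in the first 2 of these comparisons. Lrg1, a secreted acute-phase glycoprotein, rose by 3.74 in Young Bleo (adjusted p = 4.4e-11 by DESeq2, 0.0016 by edgeR) and by 3.65 in Aged Bleo against Young Sham (9.4e-11 and 0.0019). The complement genes C4b and C3 rose in Aged Sham by 1.97 (adjusted p = 0.0020 and 0.053) and 1.83 (0.00020 and 0.024). C3 had mean normalized counts of 981 ± 447 and 2947 ± 1040 in the young groups (Sham and Bleo) and 3476 ± 1421 and 2270 ± 602 in the aged groups. Like Serpina3n, its mean was higher with bleomycin in young mice and lower in aged mice, with a difference of responses of -2.20 (adjusted p = 0.015 by DESeq2, 0.336 by edgeR) that was lost without Aged Sham replicate 14 (0.10) or Young Bleo replicate 17 (0.065). Saa3, at 0 to 4.10 normalized counts in Young Sham, reached 307 in Aged Bleo, 75.4 in Young Bleo and 90.0 in Aged Sham. Orm1 was at 0 to 6.84 in Young Sham and 15.5 to 105 in Young Bleo. Against Aged Sham, 3 rose and 1 fell in Aged Bleo (edgeR 0 and 0, all genes 3.40% and 2.45%). Tnfrsf1b, a TNF receptor, rose by 1.87 in Aged Bleo against Aged Sham (adjusted p = 0.00086 by DESeq2, not called by edgeR), and Ptx3 was at 1.61 (0.037 and 0.139), a call lost in 4 of 7 fits that left out a library. Pzp was at 0 to 38.7 normalized counts in Young Sham and at 0 in all 4 Young Bleo libraries.

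Of 15 glucocorticoid-response genes, 4 rose in Aged Sham (none fell, edgeR 2), 2 rose and 3 fell in Young Bleo (edgeR 2 and 2) and 2 fell in Aged Bleo against Aged Sham (edgeR 0 and 0). Among all genes tested, 2.24% rose in Aged Sham, 7.57% rose and 6.35% fell in Young Bleo, and 2.45% fell in Aged Bleo against Aged Sham. Dusp1 rose by 1.24 in Aged Sham (adjusted p = 0.0017 by DESeq2, 0.042 by edgeR) and Sult1a1 by 1.12 (0.0027 and 0.047), both lost without Aged Sham replicate 14 (0.11 and 0.055). Cdkn1a was at 1.08 (0.042 and 0.142), a call lost in 7 of 8 such fits. Hsd11b1, which regenerates active glucocorticoid inside cells, had mean normalized counts of 1592 ± 388 and 344 ± 118 in the young groups (Sham and Bleo) and 3345 ± 1244 and 687 ± 552 in the aged groups. It fell by 2.21 in Young Bleo (6.3e-05 and 0.012) and by 2.28 in Aged Bleo against Aged Sham (0.0011 and 0.051). Fkbp5 rose by 2.94 in Young Bleo (6.7e-05 and 0.011), as did Ddit4 by 1.88 (0.00031 and 0.012). In Aged Bleo against Young Sham, 3 of the list rose and 1 fell (edgeR 2 and 0), where 6.58% and 3.14% of all genes did. There Fkbp5 rose by 2.60 (adjusted p = 0.00072 by DESeq2, 0.026 by edgeR) and Ddit4 by 1.88 (0.00043 and 0.018). Against Aged Sham neither of them was called.

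Outside the cluster, the protein-coding genes whose pattern was most like Serpina3n were Ybx1, Cxcl10, 2700089E24Rik, C130026I21Rik and Ifi202b, with Pearson correlations of 0.947, 0.927, 0.914, 0.899 and 0.889 over 16 libraries, among 12314 genes averaging 50 or more normalized counts. Ybx1, which encodes an RNA- and DNA-binding protein, moved over a much narrower range than Serpina3n, with group means of 28742 and 35571 in the young groups (Sham and Bleo) and 42590 and 37911 in the aged groups. Cxcl10, a chemokine that attracts T cells, had mean normalized counts of 16.8 ± 9.12 and 67.5 ± 37.8 in the young groups (Sham and Bleo) and 216 ± 39.0 and 204 ± 83.2 in the aged groups. Ifi202b, an interferon-inducible gene, had group means of 94.8, 145, 314 and 229 in the order given for Ybx1. C130026I21Rik was nearly absent from young cells, with means of 1.57 and 8.44 in Young Sham and Young Bleo, and averaged 165 and 116 in Aged Sham and Aged Bleo. The genes most like Serpina3g were Ttc16, Ptprcap, Phf11b, Phf11a and Zfp652, with correlations of 0.846, 0.841, 0.840, 0.838 and 0.833. Ptprcap, which encodes a protein bound to CD45 in lymphocytes, had a Spearman correlation of 0.612 only (rank 543), and Phf11a had 0.924 (rank 1). These correlations describe libraries that share groups and carry no test.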

How the data were processed

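RNA-seq of lung ECs from 16 libraries in 4 groups was used. The count of reads per gene and the FPKM values were deposited by the authors, who aligned paired reads of 100 bases to mm10 with STAR 2.5.2b and counted them with featureCounts (submitters' notes and methods); the annotation release, strandedness and treatment of reads with several matches are not given in the sources used here. The labels and the methods name different library kits, and which was used could not be settled. The table's gene counts summed to 40.3 to 44.7% of the library total behind the FPKM values. No batch or date is given.

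Counts were fitted with DESeq2 1.42.0 (R 4.3.3; Wald test, group as the only term, Benjamini-Hochberg adjustment over all genes tested, unshrunken fold changes). Alternatives were edgeR 4.0.16 (quasi-likelihood, TMM), limma 3.58.1 on log2(FPKM + 0.1) or log2(FPKM + 1), a minimum mean count of 10, fits of only the groups compared, and leaving out each library. The scripts were tested on simulated data. Sequence identity was computed with Biopython 1.88, with gene models from GENCODE vM21, whose spans and lengths match the table's, and promoters from RefSeq (GRCm38.p6).

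Replicates of 1 group differed beyond sampling noise (chi-square per degree of freedom 35.1 to 459). The members and gene lists were chosen with earlier results of these data known. Named genes were the 6 members, cluster genes averaging 10 or more normalized counts, up to 3 called genes with the largest change per list and comparison, and the 5 genes most like Serpina3n and Serpina3g. Serpina3j, Serpina1c, Ctss, Lrg1 and C3 in their other comparisons, and group means of named genes, were added after their values were seen. One gene list and one comparison of coding sequences are not reported here.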

Additional observations from a re-analysis of the deposited data

Results flagged for a closer look

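The response of Serpina3n to bleomycin differed between ages by -2.21 on the log2 scale (aged minus young). Every Young Bleo library lay above the Young Sham mean and every Aged Bleo library below the Aged Sham mean. The same held for Serpina3m, with a difference of -2.61, although its Young Bleo and Young Sham libraries overlapped. Both genes were past the call rule for this difference in the DESeq2 fit. With edgeR and with limma on log2(FPKM + 1) only Serpina3n was past it, and with limma on log2(FPKM + 0.1) neither was. Both genes were chosen with these values known, so this is a description and no independent evidence. Aged Bleo remained above Young Bleo in both genes (means of 17464 against 9005 and 1315 against 309 normalized counts).

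No library stood apart from its group by Dixon's ratio on the log2 scale in 18 checks of a member in a group of 4 or 5 libraries, and chance alone sets apart about 1 in 20. On normalized counts, a scale chosen after seeing the data, 4 values did: Aged Bleo replicate 5 in Serpina3g (9851) and Serpina3f (12401), Young Sham replicate 25 in Serpina3k (91.9) and Young Sham replicate 21 in Serpina3m (263).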

How the results depend on the processing

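The log2 fold changes of Serpina3n kept their direction under every alternative: leaving out a library gave 3.01 to 3.34 for Aged Sham and 1.24 to 1.54 for Young Bleo against Young Sham, -0.99 to -0.67 for Aged Bleo against Aged Sham, and -2.38 to -2.06 for the difference of responses. Counts of members past the call rule depended more on the tool. In Young Bleo against Young Sham they were 4 with only the compared groups in the fit instead of 2 (Serpina3m higher and Serpina3f lower were added), and 2 to 3 without a library. In Aged Bleo against Young Sham they were 3 with limma on log2(FPKM + 1) instead of 4. In Aged Bleo against Aged Sham they were 0 with edgeR and 1 with limma at either pseudocount, and 1 to 3 without a library. In Aged Bleo against Young Bleo they were 0 with edgeR and 0 with limma at either pseudocount, and 1 to 4 without a library. In the difference of responses they were 1 with edgeR, 0 with limma at log2(FPKM + 0.1) and 1 at log2(FPKM + 1). They were 2 to 3 without a library, with Serpina3i added without Young Bleo replicate 20. The cause was not tested. Over all genes, edgeR called 158 against 622 in Aged Sham against Young Sham, 1793 against 2578 in Young Bleo and 1043 against 1801 in Aged Bleo against Young Sham, 146 against 1083 in Aged Bleo against Aged Sham, 8 against 188 in Aged Bleo against Young Bleo and 1 against 77 in the difference of responses. The Aged Sham log2 fold change of Serpina3k was 3.66 with limma on log2(FPKM + 0.1) and 1.83 on log2(FPKM + 1), and that of Serpina3m was 4.42 and 3.58. No paired analysis was possible because replicate numbers do not repeat between groups. With 3 to 5 libraries per group, differences smaller than the spread within groups could not be resolved for Serpina3k, Serpina3g and Serpina3f.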
